A study of Mus musculus with 9 samples.

Results

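Long-term haematopoietic stem cells are the rare bone marrow cells that can rebuild all blood lineages after transplantation. The 8 genes described here, Hlf, Mecom, Prdm16, Mllt3, Procr, Esam, Fgd5 and Pdzk1ip1, are used to mark these cells or are needed to keep them. They were chosen by symbol, and each symbol had 1 row among the 38215 genes of the count table. RNA was sequenced from sorted bone marrow cells of 9 C57BL/6J mice, all treated with tamoxifen and all with Jak2V617F, an activating mutation of the kinase Jak2 that occurs in myeloproliferative neoplasms. In 5 mice, titled EV, Jak2V617F was the whole genotype given. In the other 4 the genotype also named sgZrsr2, and the series' design text speaks of loss of Zrsr2, a splicing factor of the minor spliceosome. Neither EV nor the prefix sg is spelled out in the labels. The cells were LSK cells (lacking lineage markers, positive for Sca1 and Kit) that carried both GFP and mCherry, taken at the end point of the experiment. There was no group without Jak2V617F, so both groups carry that mutation, and the promoter behind each transgene, the age of the mice and their disease state are not given in the sources used here.

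The LSK fraction mixes long-term stem cells with a larger number of multipotent progenitors, which have begun to lose self-renewal. Stem cell identity rests on transcription factors that restrain division and differentiation, and on chromatin and elongation factors that keep stem cell genes transcribed. The stem cells also carry surface proteins, several of them shared with endothelium, by which they are sorted. Because the libraries were made from bulk sorted cells, fewer stem cells in the gate and less RNA of a gene per stem cell cannot be told apart.

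Each library held 23238242 to 45585510 counts, and a member had 114 to 10583 counts in a library, so counting error was small beside the spread between mice. Levels are given as CPM, counts scaled to a common library size with a TMM factor. EV mice 1 to 5 had 50.6, 51.9, 62.2, 51.7 and 50.7 CPM of Zrsr2 itself, while sgZrsr2 mice 1, 2, 3 and 5 had 39.4, 44.4, 40.04 and 31.7 CPM. No library of one group reached the range of the other, and the sgZrsr2 mean was 72.8% of the EV mean (log2 fold change -0.46, SE 0.12, unadjusted p = 0.00321, adjusted p = 0.714 by edgeR's quasi-likelihood test). Over the 14944 genes tested, that test called 0 genes at an adjusted p under 0.05, 1024 genes (6.85%) had an unadjusted p under 0.05, and DESeq2 called 16. Both genes of the positive gate were present in every library, Kit at 247 to 632 CPM and Ly6a, which encodes Sca1, at 14.8 to 49.3 CPM, and Ptprc, the pan-leukocyte antigen CD45, was at 197 to 272 CPM.

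Some libraries stood apart from the rest. EV mouse 5 and sgZrsr2 mice 3 and 5 had 53.2, 91.1 and 85.3 CPM of Vwf, a megakaryocyte and stem cell gene, where the other 6 libraries ran from 4.65 to 11.4 CPM. The erythroid carbonic anhydrase Car1 was at 25.4, 39.3 and 35.5 CPM in the same 3 libraries and at 0.422 CPM or less in the others. The summed level of 12 mature neutrophil markers was 211 CPM in EV mouse 5 and 255 CPM in sgZrsr2 mouse 3, against 26.6 to 108 CPM elsewhere. The part of these other programmes in the results below was not tested. Values without these 3 libraries are given beside results that move with them. Those fits keep only mice 1 and 2 of the sgZrsr2 group, so its spread is poorly known there.

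The 8 genes together showed no change past the adjusted threshold between sgZrsr2 and EV. The log2 fold change was above 0 for 7 of 8 genes and below 0 for Fgd5, where 48.5% of all genes tested were above 0. Its median was 0.13 over the 8 genes and -0.01 over all genes tested. Mecom alone had an unadjusted p under 0.05, which makes 1 of 8 beside the 6.85% of all genes (3.87% higher and 2.98% lower in sgZrsr2). In 0 of the 8 genes did the 2 groups keep apart without overlap, a pattern found in 3.06% of all genes tested. All 8 passed the filter on low counts. The count of 7 genes above 0 rested on single mice: it was 3 of 8 without sgZrsr2 mouse 3, 4 without EV mouse 3, 4 without EV mouse 4 and 8 without EV mouse 5. It was 4 of 8 without EV mouse 5 and sgZrsr2 mice 3 and 5 together.

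**Figure D1:**
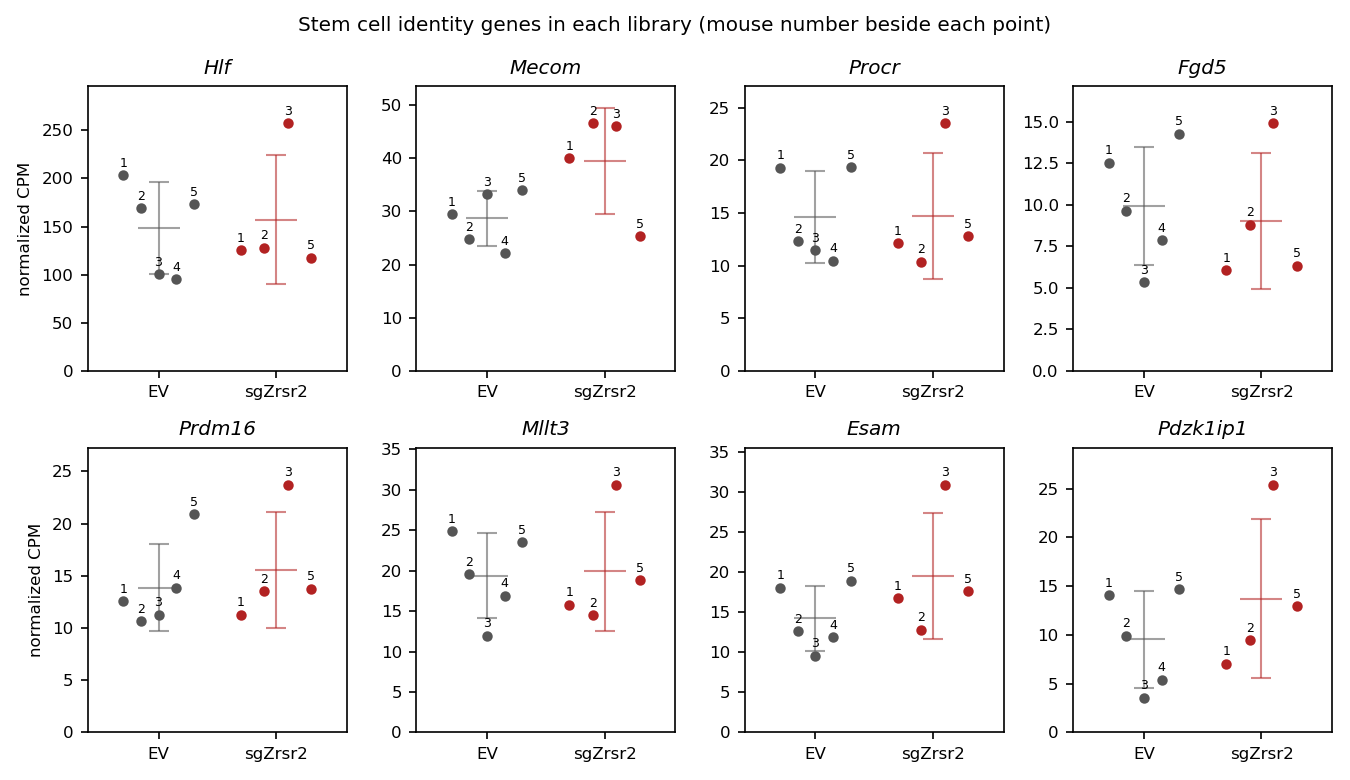
Normalized CPM (vertical axes, linear, each from 0) of the 8 genes in the 5 EV and 4 sgZrsr2 libraries; each point is a library with its mouse number, and the bars give the mean and SD of the group. The groups overlap for all 8 genes, and sgZrsr2 mouse 3 is the highest point in 7 of the 8 panels; for Mecom the highest is sgZrsr2 mouse 2.

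Sequence upstream of a gene's start is shown for 3 of the members whose windows lay wholly outside annotated exons. They show starts rich and poor in CpG, with and without the E-box letters that were searched. Each is the 250 bases before the RefSeq start on GRCm38.p6, read 5′ to 3′ on the gene's strand. Capitals mark matches to the searched E-box letters. The Hlf window is chr11:90390918-90391167 (minus strand), that of Mllt3 is chr4:88033408-88033657 (minus strand) and that of Pdzk1ip1 is chr4:115088458-115088707 (plus strand).
Hlf: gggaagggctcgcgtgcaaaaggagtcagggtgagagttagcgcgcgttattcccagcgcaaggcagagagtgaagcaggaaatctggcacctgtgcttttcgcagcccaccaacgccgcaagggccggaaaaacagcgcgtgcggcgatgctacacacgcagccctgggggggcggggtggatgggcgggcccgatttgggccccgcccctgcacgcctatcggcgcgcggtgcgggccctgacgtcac
Mllt3: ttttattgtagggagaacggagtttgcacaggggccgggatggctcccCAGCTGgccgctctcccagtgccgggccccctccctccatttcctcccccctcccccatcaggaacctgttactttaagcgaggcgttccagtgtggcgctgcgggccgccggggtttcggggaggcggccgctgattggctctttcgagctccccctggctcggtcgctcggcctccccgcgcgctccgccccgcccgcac
Pdzk1ip1: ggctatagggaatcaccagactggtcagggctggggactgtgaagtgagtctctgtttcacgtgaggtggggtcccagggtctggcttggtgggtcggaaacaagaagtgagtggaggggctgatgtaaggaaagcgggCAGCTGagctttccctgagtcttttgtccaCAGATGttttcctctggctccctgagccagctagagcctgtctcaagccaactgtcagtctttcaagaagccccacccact
The windows shown for Hlf and Mllt3 were rich in G and C (67.2% and 69.2%) and held 26 and 23 CpG dinucleotides. That of Pdzk1ip1 had 55.6% G and C and 3 CpG, the fewest of the members' windows, where the medians over 32851 windows of the same length were 52.4% and 6. The E-box letters, bound by Tal1 and its partners, were CAGCTG and CATCTG on either strand. They occurred 202 bases before the start in the Mllt3 window shown, at 111 and 81 bases in the Pdzk1ip1 window, and not in the Hlf window. A second start of Mllt3 has a window that is not shown (chr4:87806324-87806573, minus strand). It had 45.2% G and C, 4 CpG and the E-box letters 208 bases before that start.

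The table of promoters held 9 windows for 7 members, with none for Esam. Either searched E-box form was present in 5 of the 9 windows and in 25.5% of all windows, and other E-box forms were not counted. GATA letters were searched on either strand as AGATAA, with the further forms AGATAG, also TGATAA, and finally TGATAG. They were in 3 of 9 windows, beside 26.5% of all windows. ETS letters, either AGGAAG or the form CGGAAG on either strand, were in 3 of 9, beside 39.2%. RUNX letters, either TGTGGT or the form TGCGGT on either strand, were in 0 of 9, beside 18.6%, and the palindrome TTACGTAA, which proteins of the Hlf family bind, in 0 of 9, beside 0.113%. A match describes the letters only, and none of these windows was measured for binding here.

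Hlf (ENSMUSG00000003949, chr11:90336536-90390895, minus strand, GRCm38) encodes a PAR bZIP transcription factor that holds stem cells in quiescence. Its level was 203, 169, 100.2, 95.6 and 173 CPM in EV mice 1 to 5. In sgZrsr2 mice 1, 2, 3 and 5 it was 125, 128, 257 and 118 CPM. The EV mice thus split into 3 with high and 2 with low levels, 3 sgZrsr2 mice lay between them, and sgZrsr2 mouse 3 lay above all. The means were 148 ± 48.0 (SD, n = 5) and 157 ± 67.0 CPM (SD, n = 4), with a log2 fold change of 0.08 (SE 0.29, 95% interval -0.56 to 0.73, edgeR adjusted p = 0.95, exact permutation p = 0.865). Without sgZrsr2 mouse 3 the log2 fold change of Hlf was -0.26 (edgeR adjusted p = 0.927).

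The other measured PAR bZIP genes were Dbp and Tef, and Nfil3 encodes a repressor that binds the same DNA letters. Over these 4 genes with Hlf, 3 had log2 fold changes above 0 and Nfil3 was below, with a median of 0.17 and 0 genes at an unadjusted p under 0.05. Tef was at 43.9 ± 7.14 CPM in EV and 52.1 ± 7.68 CPM in sgZrsr2 (log2 fold change 0.25, edgeR adjusted p = 0.718). Nfil3 was at 33.4 ± 12.1 and 24.2 ± 2.91 CPM (log2 fold change -0.46, edgeR adjusted p = 0.714). Its highest value, 54.3 CPM, was in EV mouse 3, which had one of the low values of Hlf. The median of the 4 was -0.37 without EV mouse 5 and sgZrsr2 mice 3 and 5.

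Mecom (ENSMUSG00000027684, chr3:29951299-30548008, minus strand) encodes zinc-finger transcription factors, among them Evi1, that long-term stem cells need to persist. EV mice 1 to 5 had 29.5, 24.8, 33.3, 22.2 and 34.0 CPM of it. In sgZrsr2 mice 1, 2, 3 and 5 it was at 39.98, 46.6, 46.0 and 25.3 CPM. Thus 3 of the 4 sgZrsr2 mice lay above every EV mouse, and sgZrsr2 mouse 5 lay among them. The means were 28.7 ± 5.18 (SD, n = 5) and 39.5 ± 9.90 CPM (SD, n = 4). The log2 fold change was 0.46 (SE 0.20, 95% interval 0.02 to 0.90), with an unadjusted p of 0.0421 and an adjusted p of 0.714 by edgeR's quasi-likelihood test. The two-sided exact permutation test gave p = 0.103, where the smallest p that 5 against 4 mice allow was 0.00794.

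Mecom kept a log2 fold change above 0 in every alternative tried. Leaving out each library in turn gave log2 fold changes from 0.36 to 0.62, with edgeR adjusted p from 0.542 to 0.976. The highest came without sgZrsr2 mouse 5, where the groups no longer overlapped (unadjusted p = 0.00363, edgeR). The share of all genes without overlap in that fit is not given here, and groups of fewer libraries part more easily. The unadjusted p was above 0.05 without EV mouse 1, 2 or 4 and without sgZrsr2 mouse 1, 2 or 3 (0.0619 to 0.124, edgeR). Without EV mouse 5 and sgZrsr2 mice 3 and 5 the log2 fold change was 0.67 (edgeR unadjusted p = 0.00804, adjusted p = 0.339). That fit rests on sgZrsr2 mice 1 and 2 alone and leaves out the lowest sgZrsr2 value of Mecom, that of mouse 5. In it 11% of all genes had an unadjusted p under 0.05, beside 6.85% with all libraries. Across all alternatives tried, the adjusted p of Mecom ran from 0.18 to 1. The locus has 17 annotated transcripts, 11 of them coding, and the counts are sums over the gene, so the isoforms were not told apart.

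Prdm16 (ENSMUSG00000039410, chr4:154316125-154636873, minus strand) is a close relative of Mecom and supports stem cell maintenance. Its values were 12.6, 10.7, 11.3, 13.9 and 20.9 CPM in EV mice 1 to 5. In sgZrsr2 mice 1, 2, 3 and 5 they were 11.3, 13.5, 23.7 and 13.8 CPM. In each group 1 mouse stood above the rest, EV mouse 5 and sgZrsr2 mouse 3. The means were 13.9 ± 4.13 and 15.6 ± 5.55 CPM, and the log2 fold change was 0.17 (SE 0.26, 95% interval -0.41 to 0.75, edgeR adjusted p = 0.877, exact permutation p = 0.54). Of 10 measured genes of the Prdm family, Mecom included, 6 were above 0 and 4 below, with a median of 0.06. Mecom was the 1 gene with an unadjusted p under 0.05, beside 6.85% of all genes. The next was Prdm10, at 10.2 ± 2.14 and 13.0 ± 0.596 CPM (log2 fold change 0.35, edgeR adjusted p = 0.714), which was singled out after its values were seen. The median of the family was -0.30 without EV mouse 5 and sgZrsr2 mice 3 and 5.

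Mllt3 (ENSMUSG00000028496, chr4:87769925-88033364, minus strand), also called AF9, reads acylated histones and links Dot1l and the super elongation complex to active genes. EV mice 1 to 5 had 24.9, 19.6, 11.97, 16.9 and 23.5 CPM. In the 4 sgZrsr2 mice (1, 2, 3 and 5) it was 15.8, 14.5, 30.6 and 18.8 CPM. The order resembled that of Hlf, with EV mouse 3 low, EV mice 1 and 5 high and sgZrsr2 mouse 3 the highest. The means were 19.4 ± 5.22 and 19.9 ± 7.35 CPM (log2 fold change 0.04, SE 0.27, 95% interval -0.55 to 0.63, edgeR adjusted p = 0.972, exact permutation p = 0.952).

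Mllt3 works with a set of elongation and chromatin factors. Of 14 genes of its complexes, Mllt3 included, 13 were tested, with 10 above 0, 3 below and a median of 0.08 (0.13 without EV mouse 5 and sgZrsr2 mice 3 and 5). Aff1, a scaffold of the super elongation complex, was the 1 gene with an unadjusted p under 0.05, beside 6.85% of all genes. It was at 107 ± 15.4 CPM in EV and 136 ± 10.3 CPM in sgZrsr2 (log2 fold change 0.34, unadjusted p = 0.0177, adjusted p = 0.714, edgeR). Its groups overlapped by EV mouse 5, at 125 CPM, and sgZrsr2 mouse 1, at 124 CPM. The histone methyltransferase Dot1l was at 159 ± 19.4 and 166 ± 27.99 CPM (log2 fold change 0.06, edgeR adjusted p = 0.912).

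Procr (ENSMUSG00000027611, chr2:155751117-155755471, plus strand) encodes EPCR, the endothelial receptor of protein C, which is among the surface markers used to sort long-term stem cells. EV mice 1 to 5 had values of 19.3, 12.4, 11.5, 10.5 and 19.3 CPM. The 4 sgZrsr2 mice had 12.2, 10.4, 23.5 and 12.8 CPM. EV mice 1 and 5 and sgZrsr2 mouse 3 were high, and the other 6 libraries lay within 10.4 to 12.8 CPM. The means were 14.6 ± 4.37 and 14.7 ± 5.97 CPM (log2 fold change 0.01, SE 0.28, 95% interval -0.61 to 0.64, edgeR adjusted p = 0.99, exact permutation p = 0.976).

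Of 10 genes for Procr and other coagulation proteins and receptors, 9 were tested, with 7 above 0, 2 below and a median of 0.27. None had an unadjusted p under 0.05. F2r, the thrombin receptor PAR1, was at 77.2 ± 31.0 CPM in EV and 121 ± 40.5 CPM in sgZrsr2 (log2 fold change 0.65, edgeR adjusted p = 0.714). Thbd, thrombomodulin, had its highest values in the 3 libraries with high Vwf, at 19.6, 24.0 and 23.5 CPM against 6.81 to 10.9 CPM in the others. Without these 3 libraries the median of the list was 0.03, and the log2 fold changes were 0.38 for F2r and -0.08 for Thbd. Proc, which encodes the ligand protein C and is made mainly in liver, had 0 counts in all 9 libraries.

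Esam (ENSMUSG00000001946, chr9:37528078-37538319, plus strand) encodes an immunoglobulin-type adhesion molecule of endothelium and platelets that also marks stem cells. Its values were 18.1, 12.6, 9.57, 11.9 and 18.9 CPM in EV mice 1 to 5. Those of sgZrsr2 mice 1, 2, 3 and 5 were 16.7, 12.8, 30.9 and 17.7 CPM. All 4 sgZrsr2 mice lay above EV mice 2, 3 and 4, and EV mice 1 and 5 lay above 3 of them. The means were 14.2 ± 4.09 and 19.5 ± 7.87 CPM, and the log2 fold change was 0.46 (SE 0.28, 95% interval -0.16 to 1.08, edgeR adjusted p = 0.728, exact permutation p = 0.238). Without sgZrsr2 mouse 3 it was 0.15, and it was 0.19 without EV mouse 5 and sgZrsr2 mice 3 and 5. Of 8 genes of the adhesion family, 6 were tested, with 5 above 0, 1 below and a median of 0.54 (0.24 without EV mouse 5 and sgZrsr2 mice 3 and 5). F11r, which encodes the junctional molecule JAM-A, was at 12.1 ± 3.07 and 15.8 ± 2.72 CPM (log2 fold change 0.38, edgeR adjusted p = 0.714), and Jam2 and Jam3 were at 3.41 CPM or less in all libraries.

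Procr and Esam are also endothelial genes, so endothelial markers were read beside them. Of 16 such markers, 5 were under 1 CPM in every library, among them Cldn5, Sox17 and Lyve1. Cdh5, which encodes VE-cadherin, was at 0.844 to 4.05 CPM. The summed endothelial list, to which Pecam1, Eng, Egfl7 and Tie1 contributed most, ran from 332 to 439 CPM in EV and from 392.4 to 507 CPM in sgZrsr2. The highest sum, 507 CPM, was in sgZrsr2 mouse 3, where Procr and Esam were highest too. Pecam1 (155 CPM), Tie1 (103 CPM), Eng (178 CPM) and Kdr (3.14 CPM) also had their highest values there. Other markers did not follow. Egfl7 was at 52.6 CPM there, in a range of 52.1 to 98.7 CPM, and Flt1 had its lowest value there, 0.559 CPM. Cdh5 had 1.80 CPM there and its highest value in EV mouse 3. The part of endothelial RNA in the values of Procr and Esam was not tested. Of the 11 tested, 6 were above 0 and 5 below, with 0 at an unadjusted p under 0.05 and a median of 0.04 (-0.17 without EV mouse 5 and sgZrsr2 mice 3 and 5).

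Fgd5 (ENSMUSG00000034037, chr6:91978878-92076004, plus strand) encodes an exchange factor for Cdc42, and reporter alleles at this gene label stem cells. The values of EV mice 1 to 5 were 12.5, 9.64, 5.33, 7.88 and 14.3 CPM. The values of sgZrsr2 mice 1, 2, 3 and 5 were 6.05, 8.80, 14.9 and 6.34 CPM. The means were 9.93 ± 3.57 and 9.03 ± 4.11 CPM. Fgd5 was the only one of the 8 genes with a log2 fold change below 0, at -0.14 (SE 0.34, 95% interval -0.89 to 0.62, edgeR adjusted p = 0.924, exact permutation p = 0.698). Without sgZrsr2 mouse 3 it was -0.49, and without EV mouse 5 it was 0.03. Over the 6 measured genes of the Fgd family 3 were above 0 and 3 below, with a median of 0.01. Fgd2, a relative expressed in myeloid cells, was at 89.0 ± 21.3 and 62.0 ± 20.9 CPM (log2 fold change -0.52, edgeR adjusted p = 0.714). Fgd4 went the other way, at 15.3 ± 2.63 and 20.8 ± 5.98 CPM (log2 fold change 0.44, edgeR adjusted p = 0.714). Without EV mouse 5 and sgZrsr2 mice 3 and 5 the median of the family was -0.29. In that fit Fgd2 was at -1.02 (edgeR adjusted p = 0.319) and Fgd4 at 0.77 (edgeR adjusted p = 0.347).

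Pdzk1ip1 (ENSMUSG00000028716, chr4:115088708-115093899, plus strand) encodes MAP17, a small membrane protein that binds PDZ-domain scaffolds. It was the most variable member. Its values were 14.1, 9.90, 3.55, 5.39 and 14.7 CPM in EV mice 1 to 5. Those of sgZrsr2 mice 1, 2, 3 and 5 were 7.03, 9.44, 25.4 and 12.9 CPM. The highest library had 7.15 times the lowest, where the other 7 genes spanned 2.1 to 3.23 times. The means were 9.53 ± 5.01 and 13.7 ± 8.16 CPM, and the log2 fold change was 0.53 (SE 0.47, 95% interval -0.50 to 1.56, edgeR adjusted p = 0.779, exact permutation p = 0.381). Without sgZrsr2 mouse 3 it was 0.04, and without EV mouse 5 and sgZrsr2 mice 3 and 5 it was 0.02.

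On chromosome 4, Pdzk1ip1 lies 16952 bases downstream of Tal1, which encodes a basic helix-loop-helix factor of stem cells, with 0 genes of the table wholly between them. Tal1 was at 91.2, 84.2, 74.7, 85.7 and 128 CPM in EV, beside 99.99, 96.9, 159 and 135 CPM in sgZrsr2 (log2 fold change 0.41, unadjusted p = 0.0563, edgeR adjusted p = 0.714). The log2 fold change of Tal1 was 0.24 without EV mouse 5 and sgZrsr2 mice 3 and 5. For both genes EV mouse 3 was the lowest library and sgZrsr2 mouse 3 the highest. Of 5 genes for scaffolds and transporters that work with MAP17 in kidney, only Slc9a3r1 and Slc9a3r2 were tested. Slc9a3r1 was at 109 ± 16.8 and 111 ± 13.98 CPM (log2 fold change 0.03, edgeR adjusted p = 0.965), and the glucose transporter gene Slc5a1 had 0 counts in all libraries.

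**Figure D2:**
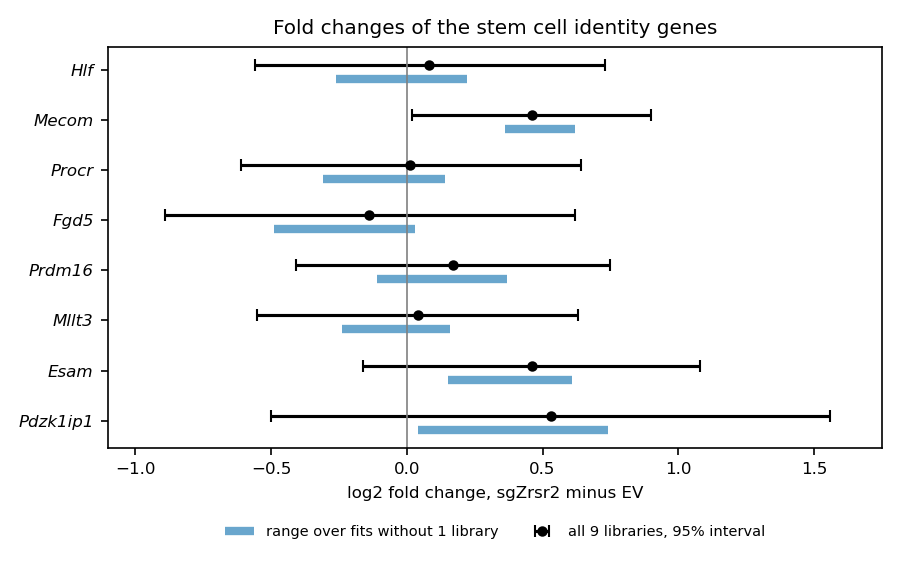
Log2 fold change of each gene, sgZrsr2 minus EV (horizontal axis), with its 95% interval from all 9 libraries in black and the range over the fits that leave out 1 library in blue. The interval of Mecom, 0.02 to 0.90, is the only one that stays above 0 before adjustment, and the ranges of Hlf, Procr, Fgd5, Prdm16 and Mllt3 reach both sides of 0.

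The 8 genes varied more over the libraries of both groups together than the median gene did. Their SD of log2 CPM over the 9 libraries was 0.39 to 0.84, against a median of 0.32 over all genes tested. Of the 8 genes, 7 were highest in sgZrsr2 mouse 3, a library that was the highest for 21.0% of all genes tested, and Mecom was highest in sgZrsr2 mouse 2, beside 8.93%. EV mouse 3 was lowest for 4 of 8 (Fgd5, Mllt3, Esam and Pdzk1ip1), beside 22.0% of all genes, and EV mouse 4 for Hlf and Mecom, beside 13.0%. All 8 lay above their own mean in EV mouse 5 and in sgZrsr2 mouse 3, and all 8 lay below it in EV mouse 4. With each gene's log2 CPM centred on its mean, the average of the 8 came to 0.28, -0.11, -0.58, -0.40 and 0.40 for EV mice 1 to 5. For sgZrsr2 mice 1, 2, 3 and 5 it came to -0.20, -0.11, 0.82 and -0.09. The EV mice alone thus ran from -0.58 to 0.40, and 3 of the 4 sgZrsr2 mice lay within that range.

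Mecom departed from the pattern of the other 7. In sgZrsr2 mice 1 and 2 the average of the other 7 was -0.28 and -0.20, while Mecom was at 0.30 and 0.52. In EV mouse 3 the other 7 averaged -0.67 and Mecom was at 0.04. The ratio of Hlf to Mecom in CPM was 6.89, 6.84, 3.01, 4.31 and 5.10 for EV mice 1 to 5, with 3.14, 2.75, 5.60 and 4.66 for the sgZrsr2 mice. It was therefore at most 3.14 for EV mouse 3 and for sgZrsr2 mice 1 and 2, and at least 4.31 in the other 6 libraries, a split that did not follow the groups.

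Likeness between patterns was measured as the root-mean-square difference of centred log2 CPM over the 9 libraries, where 0 means the same pattern. The closest pair was Procr and Mllt3, at 0.18. Hlf was nearest to Mllt3 (0.21), Esam to Mllt3 (0.23), Fgd5 to Hlf (0.26) and Prdm16 to Procr (0.29). Pdzk1ip1 was nearest to Esam (0.43), and the nearest to Mecom was Prdm16 (0.41). A gene with no variation would lie at 0.37 from Mecom, nearer than any member, and for the other 7 genes the nearest member was closer than that flat pattern (0.38 to 0.80). The farthest pair was Mecom and Pdzk1ip1, at 0.78. These distances describe 9 libraries that all members share, and sgZrsr2 mouse 3 weighs in each of them.

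**Figure D3:**
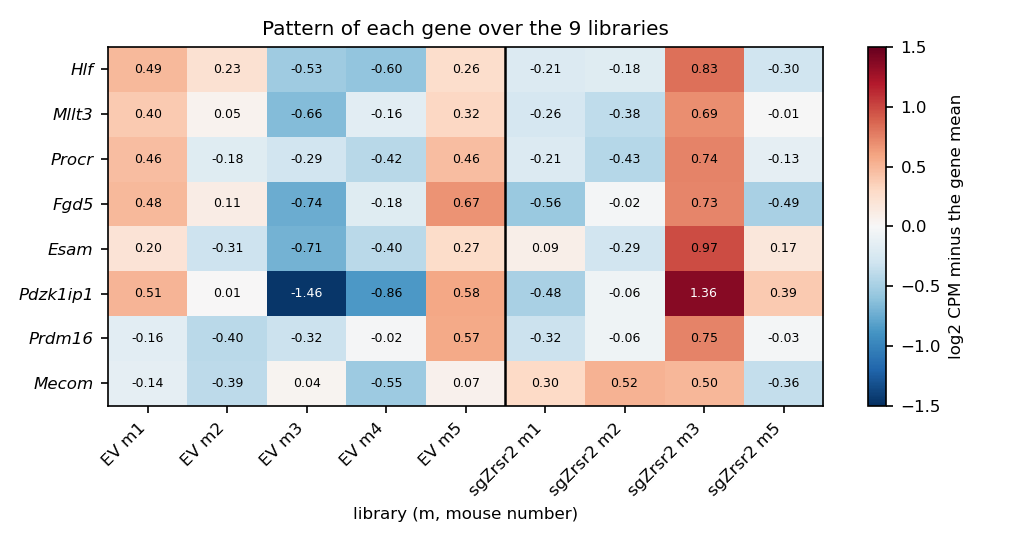
Log2 CPM minus the gene's mean over all libraries (colour and printed value) for the 8 genes (rows) in the 5 EV libraries (left of the line) and the 4 sgZrsr2 libraries (right). The column of sgZrsr2 mouse 3 is above 0 throughout and that of EV mouse 4 below 0 throughout, and Mecom differs from the rows above it for EV mouse 3 and for sgZrsr2 mice 1 and 2.

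Among 5151 other tested genes that varied at least as much as the members' average, the 5 most like that average were Gimap1 (0.11), Gprasp1 (0.12), Zfp579 (0.18), B430305J03Rik (0.18) and Tbxas1 (0.19). Gimap1 had 59.1, 49.4, 28.9, 39.9 and 65.2 CPM in EV mice 1 to 5, beside 44.5, 44.7, 85.1 and 53.7 CPM in the sgZrsr2 mice. As for 7 of the 8 members, sgZrsr2 mouse 3 was highest, and as for 4 of them EV mouse 3 was lowest. Gimap1 encodes a GTPase of lymphocytes and blood progenitors, and Tbxas1 encodes thromboxane synthase. Gimap1 overlaps Gimap5 and Gimap7 in the annotation, and 8 of its values were whole numbers. The values of Gprasp1 and B430305J03Rik were not whole in any library, so the split of reads between genes leaves those values uncertain.

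Levels between genes were compared per kilobase of exon. Hlf was the highest member, at a mean of 22.8 CPM per kb (range 14.3 to 38.5), above Procr in 9 of 9 libraries and with no overlap of their ranges. Procr (7.22), Pdzk1ip1 (6.40) and Esam (5.78) followed, and neighbours among these 3 kept their order in only 6 of 9 libraries. Esam was above Mecom (2.70) in 9 of 9 libraries, and Mecom above Mllt3 (1.63) in 9 of 9. Mllt3, Prdm16 (1.57) and Fgd5 (1.51) were the lowest and did not keep their order beyond 6 of 9 libraries. With the length of the longest coding transcript in place of all exons, Hlf stayed first at 27.0 CPM per kb and Pdzk1ip1 (10.1) came before Procr (9.18).

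**Figure D4:**
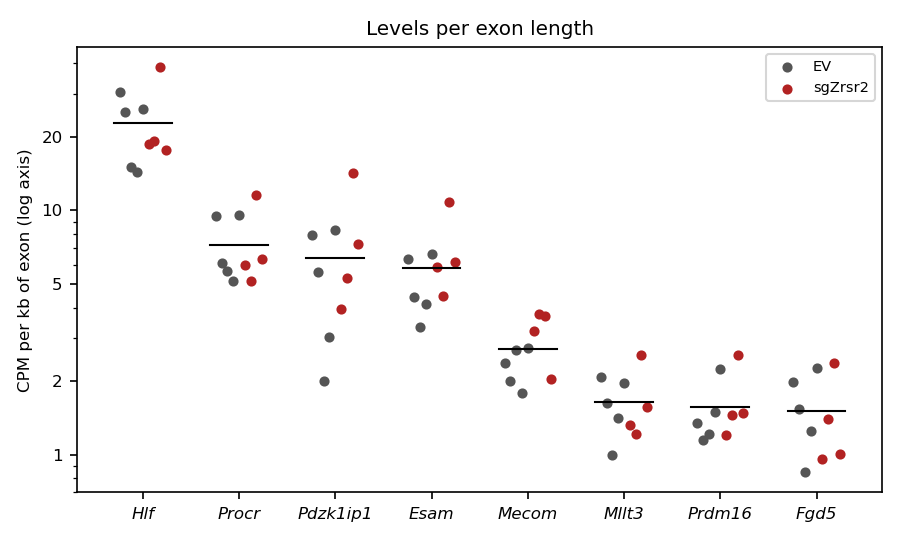
CPM per kilobase of exon (vertical log axis) of the 8 genes in each EV (grey) and sgZrsr2 (red) library, with the mean over 9 libraries as a black line. Hlf lies above all other genes, Procr, Pdzk1ip1 and Esam overlap below it, and Mllt3, Prdm16 and Fgd5 lie together at the bottom.

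Further genes known from stem cells were read from a list of 30, all of which were tested. Of these, 22 had log2 fold changes above 0 and 8 below, with a median of 0.27, and 3 had an unadjusted p under 0.05, all above 0, where 3.87% of all genes did so. Gata2, a zinc-finger factor of stem cells, was at 235 ± 49.5 CPM in EV and 323 ± 45.8 CPM in sgZrsr2 (log2 fold change 0.46, unadjusted p = 0.0185, adjusted p = 0.714, edgeR). Robo4, a guidance receptor that helps stem cells lodge in marrow, was at 15.9 ± 4.85 and 27.2 ± 8.51 CPM (log2 fold change 0.77, unadjusted p = 0.021, adjusted p = 0.714, edgeR). Meis1, the partner of Hox factors, was at 126.3 ± 11.4 and 151 ± 12.7 CPM (log2 fold change 0.26, unadjusted p = 0.0301, adjusted p = 0.714, edgeR). Without EV mouse 5 and sgZrsr2 mice 3 and 5 the median of the 30 genes was 0.08, with 19 above 0, and the log2 fold changes were 0.39 for Gata2, 0.99 for Robo4 and 0.25 for Meis1. Meis1 was the 1 gene of the 30 whose groups did not overlap, a share close to the 3.06% of all genes tested. It had at most 138 CPM in EV and at least 142 CPM in sgZrsr2.

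Robo4 shared with Mecom a low value in sgZrsr2 mouse 5, at 15.6 CPM where the other sgZrsr2 mice had 27.5 to 35.8 CPM. Egr1, an immediate early gene that also restrains stem cell division, was at 1167 ± 565 and 1151.5 ± 379 CPM (log2 fold change -0.02, edgeR adjusted p = 0.99). Mmrn1, shared with megakaryocytes, had the largest log2 fold change, 0.87 (edgeR adjusted p = 0.783). It was at 32.1, 51.8 and 24.1 CPM in EV mouse 5 and sgZrsr2 mice 3 and 5 and at 3.84 to 12.2 CPM in the others, and without the 3 high libraries its log2 fold change was -0.35 (edgeR adjusted p = 0.828).

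Genes of multipotent progenitors mostly had log2 fold changes below 0, and none passed the test. Of 15, 3 were above 0 and 12 below, with a median of -0.15 and 0 at an unadjusted p under 0.05. Flt3, the receptor gained by multipotent progenitors, was at 412 ± 113 CPM in EV and 317 ± 61.6 CPM in sgZrsr2 (log2 fold change -0.38, edgeR adjusted p = 0.722). Dntt, a gene of lymphoid priming, was at 186 ± 88.6 and 101 ± 69.1 CPM (log2 fold change -0.88, edgeR adjusted p = 0.714). Cd48, absent from long-term stem cells, was at 85.1 ± 7.11 and 76.6 ± 9.70 CPM (log2 fold change -0.15, edgeR adjusted p = 0.744). Without EV mouse 5 and sgZrsr2 mice 3 and 5, 13 of the 15 were below 0, with a median of -0.32. Of these, 3 had an unadjusted p under 0.05, where 11% of all genes did in that fit. They were Flt3 (log2 fold change -0.41, edgeR adjusted p = 0.438), Dntt (-1.76, edgeR adjusted p = 0.342) and Rag1 (-5.11, edgeR adjusted p = 0.451). Rag1 was near the floor, at 0.356 and 0 CPM in sgZrsr2 mice 1 and 2.

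Long-term stem cells divide rarely, so genes of proliferation were read as well. Of 20, 3 were above 0 and 17 below, with a median of -0.14 (-0.09 without EV mouse 5 and sgZrsr2 mice 3 and 5). Birc5, which encodes survivin, was the 1 gene of the 20 with an unadjusted p under 0.05, beside 6.85% of all genes. It was at 73.3 ± 6.497 CPM in EV and 62.1 ± 5.24 CPM in sgZrsr2 (log2 fold change -0.24, unadjusted p = 0.0424, adjusted p = 0.714, edgeR). It was also the 1 gene of the list whose groups kept apart, beside 3.06% of all genes. They only just did so, with at least 66.7 CPM in EV and at most 66.6 CPM in sgZrsr2. Mki67, the usual proliferation marker, was at 694 ± 157 and 724 ± 101 CPM (log2 fold change 0.06, edgeR adjusted p = 0.936). The summed proliferation genes were lowest in sgZrsr2 mouse 3, at 3462 CPM where the other 8 libraries had 3896 to 4786 CPM. That library thus combined the highest levels of 7 of the 8 members with the lowest sum of proliferation genes. The proliferation genes were not low there as a whole. Mcm2 (264 CPM), Mcm3 (292 CPM), Mcm5 (286 CPM) and Pcna (315 CPM) had their lowest values there. Mki67 (754 CPM), Plk1 (62.9 CPM) and Cenpf (98.4 CPM) were above their EV means of 694, 56.4 and 85.2 CPM.

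Markers of other cell types mostly followed single libraries. Megakaryocyte markers had a median log2 fold change of 1.17 over 14 tested genes (13 above 0), and erythroid markers one of 1.40 over 11 (10 above 0). Most of these genes had their highest 3 values in EV mouse 5 and sgZrsr2 mice 3 and 5. Without these 3 libraries the megakaryocyte median was 0.12 (9 of 14 above 0). The 9 erythroid markers that could still be tested had a median of 0.42, where the same 9 had 0.94 with all libraries. At an unadjusted p under 0.05 with all libraries were Gp1ba (log2 fold change 0.70), Rhag (2.45) and Tfrc (-0.51), each with an edgeR adjusted p of 0.714. Of 12 mature neutrophil markers 8 were above 0 and 4 below, with a median of 0.18, which was -0.61 without the 3 libraries. Lymphocyte markers had a median of -0.37 over 9 tested genes, which was -1.93 without them, and Cd3e, a defining T cell gene, was at 0.0873 CPM or less. Of 12 stromal markers 9 were under 1 CPM in every library, and Col3a1 had 0 counts.

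**Figure D5:**
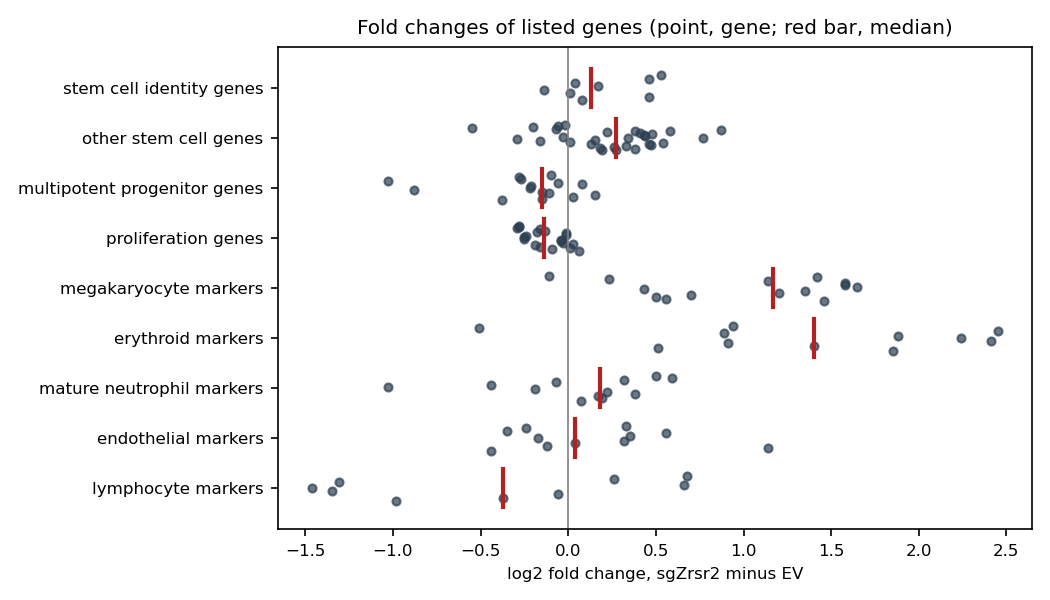
Log2 fold change, sgZrsr2 minus EV (horizontal axis), of each tested gene (points) in the 8 stem cell identity genes and 8 other lists, with the median of each list as a red bar. The medians were 0.13 for the identity genes, 0.27 for other stem cell genes, -0.15 for multipotent progenitor genes and -0.14 for proliferation genes, while the megakaryocyte and erythroid markers spread to larger values with no gene past the adjusted threshold.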

How the data were processed

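RNA sequencing of 9 libraries was analysed from the gene table that the authors deposited, which holds RSEM expected counts (estimated counts per Ensembl gene, not normalized), 1 column per mouse. RSEM 1.2.30, cutadapt 1.11 and the build GRCm38 are named per the submitters' processing notes. The aligner, annotation and strandedness are not given in the sources used here. Per the labels' protocols, polyadenylated RNA from 5 ng of total RNA was used and libraries were amplified by PCR, which can add technical spread between libraries. RSEM divides reads between similar genes, and 9.78% to 13.3% of values per library were not whole, but all 72 values of the 8 genes were. Genes that overlap a member (6, over 3 members) had at most 17 counts in a library.

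Counts were rounded, filtered with filterByExpr (minimum count 10, minimum total 15; 14944 genes and 99.93% of counts kept) and scaled with TMM factors (0.894 to 1.07). Groups were compared with edgeR 4.0.16 (glmQLFit and glmQLFTest, R 4.3.3) with Benjamini-Hochberg adjustment over all tested genes, and single genes also with two-sided exact permutation tests on log2 CPM (prior count 2). The 95% intervals used a t quantile of 2.207 on 10.77 degrees of freedom. The titles number the mice, but no label says how they were housed or prepared, so p-values measure the spread between these samples. Exon lengths came from GENCODE M21, whose coordinates were identical for 7 of the 8 genes. Promoters came from the RefSeq table on GRCm38.p6, and the motif letters were widened after a first search.

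The members and lists were chosen with earlier results of these data known. Named were all members, Zrsr2, Jak2, Kit and Ptprc, and from each list the 2 genes with the highest CPM, the 2 with the largest fold change and any at an unadjusted p under 0.05. Genes beyond this rule were chosen after their values were seen. Of the genes under the rule, those not needed for a result are summed up in counts. Jak2 was at 54.7 to 93.5 CPM (log2 fold change 0.27, edgeR adjusted p = 0.714). Alternatives were other scaling factors, filters and dispersion, counts not rounded, DESeq2 1.42.0, limma 3.58.1 voom with sample weights, the mouse number as a block, sgZrsr2 mice 1 and 2 averaged, and libraries left out. The lists without EV mouse 5 and sgZrsr2 mice 3 and 5 were added after seeing the data. Figures used matplotlib 3.10.9.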

Additional observations from a re-analysis of the deposited data

Results flagged for a closer look

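Hlf was at 257 CPM in sgZrsr2 mouse 3, far from the other 3 sgZrsr2 mice, which lay between 118 and 128 CPM. The gap to the nearest of them was 0.927 of the range of the group. Among 16 groups of values examined (8 genes in each of the 2 groups), this was the 1 in which a library stood out by Dixon's criterion, and chance would give about 0.8. The same library was the highest of all 9 for 7 of the 8 genes, beside 21.0% of all genes tested, and had 255 CPM of mature neutrophil markers. What set it apart was not tested.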

How the results depend on the processing

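The number of genes past the adjusted threshold was 0 with edgeR and in each fit without 1 library (0 to 0), 16 with DESeq2 and 1 with sgZrsr2 mice 1 and 2 averaged. Genes at an unadjusted p under 0.05 numbered 1024, and 341 with the mouse number as a block, 609 without EV mouse 4, 2551 with limma-voom and sample weights and 1692 without EV mouse 5 and sgZrsr2 mice 3 and 5. Members at an unadjusted p under 0.05 numbered 1 (Mecom), and 0 with the block or with the averaged mice, and 0 to 1 without 1 library. Members whose groups did not overlap numbered 0, and 1 without EV mouse 5 and sgZrsr2 mice 3 and 5, and 0 to 1 without 1 library. The share of all genes without overlap is given only for all libraries (3.06%). Groups of fewer libraries part more easily, so the counts from the smaller fits cannot be read against that share. The median of the members, 0.13, ran from -0.18 (without sgZrsr2 mouse 3) to 0.26 without 1 library, and was -0.08 with limma-voom and -0.07 without the 3 libraries.

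The direction turned for 5 members. With limma-voom the log2 fold changes were -0.32 for Hlf, -0.17 for Procr and -0.25 for Mllt3, and 4 of 8 members were above 0. With the mouse number as a replicate block they were -0.10, -0.13 and -0.03. Without EV mouse 5 and sgZrsr2 mice 3 and 5 they were -0.15, -0.24 and -0.26. Without 1 library they ran from -0.26 to 0.22 for Hlf, -0.31 to 0.14 for Procr, -0.24 to 0.16 for Mllt3, -0.49 to 0.03 for Fgd5 and -0.11 to 0.37 for Prdm16. Without 1 library Mecom stayed between 0.36 and 0.62, Esam between 0.15 and 0.61 and Pdzk1ip1 between 0.04 and 0.74. The cause of each turn was not tested.

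No label says whether same-numbered mice were paired, and their values did not show it. Deviations of same-numbered mice correlated over genes at -0.227, -0.0904, -0.404 and 0.369 for mice 1, 2, 3 and 5, and not every sample correlated best with its own number. EV mouse 5 correlated with sgZrsr2 mouse 3 at 0.523. The correlations thus also carry the libraries that stood apart, so they cannot decide whether same-numbered mice shared a litter or a day. With 5 and 4 mice, the 95% intervals of the log2 fold changes ran from the narrowest, 0.02 to 0.90 for Mecom, to the widest, -0.50 to 1.56 for Pdzk1ip1.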
